A study of Mus musculus with 8 samples.

Results

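The claudins, the strand-forming proteins of the tight junction, were followed in mouse gut samples that did or did not overexpress Nanog. The group held 10 genes, Cldn1, Cldn2, Cldn3, Cldn4, Cldn5, Cldn7, Cldn8, Cldn12, Cldn15 and Cldn23. They were chosen by gene symbol, with earlier results of these data known. The annotation of the array assigned 12 of its 25697 probes to 9 of these genes: 3 probes to Cldn15, 2 to Cldn8 and 1 to each of the other 7. Cldn5 had no probe under this symbol and was not analysed here. All 9 genes passed the filter on dim probes and were among the 8607 genes tested. RNA from 8 samples was hybridised to Illumina bead arrays, 2 samples in each of 4 groups: colon with Nanog overexpression, colon without it, intestine with Nanog overexpression and intestine without it. The labels call the samples of a group biological replicates. The part of the intestine, the mouse strain and age, the number of animals and the way Nanog was expressed are not given in the sources used here. Nanog is a homeodomain transcription factor of pluripotent cells, and the title of the study names hyperplasia of intestine and colon.

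Claudins are membrane proteins that span the membrane in several passes and polymerise into the strands of the tight junction, the seal between neighbouring epithelial cells. Sealing claudins close the space between cells to ions, whereas pore-forming claudins make it selectively permeable, mostly to small cations. The mixture of claudins in an epithelium therefore sets how leaky it is, and this mixture changes along the gut and from crypt to surface. Cldn1, Cldn3, Cldn4, Cldn5 and Cldn8 were grouped as sealing claudins, Cldn2 and Cldn15 as pore-forming ones, and Cldn7, Cldn12 and Cldn23 as claudins whose role is less settled or varies between tissues.

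Promoter windows from RefSeq (assembly GRCm38.p6), from 250 bases before to 50 bases after a gene's start, were matched by symbol for 8 of the 10 genes. Windows were found for Cldn1, Cldn2, Cldn3, Cldn4, Cldn5, Cldn7, Cldn12 and Cldn15, and there was no entry for Cldn8 and Cldn23. The windows of Cldn15 (chr5:136967619-136967918, plus strand) and Cldn4 (chr5:134946885-134947184, minus strand) are shown because these 2 genes were the members called at levels well above background. That of Cldn3 (chr5:134985964-134986263, plus strand) is shown because Cldn3 is the neighbour of Cldn4 on the chromosome and, unlike it, passed none of the tests of the comparisons. Capitals mark the GC box GGGCGG on either strand.
Cldn15: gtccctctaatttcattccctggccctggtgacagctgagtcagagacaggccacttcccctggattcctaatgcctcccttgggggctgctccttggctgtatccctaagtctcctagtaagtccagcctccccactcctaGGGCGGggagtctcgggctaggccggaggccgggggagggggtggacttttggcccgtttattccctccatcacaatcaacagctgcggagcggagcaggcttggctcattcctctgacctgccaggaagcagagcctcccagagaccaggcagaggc
Cldn4: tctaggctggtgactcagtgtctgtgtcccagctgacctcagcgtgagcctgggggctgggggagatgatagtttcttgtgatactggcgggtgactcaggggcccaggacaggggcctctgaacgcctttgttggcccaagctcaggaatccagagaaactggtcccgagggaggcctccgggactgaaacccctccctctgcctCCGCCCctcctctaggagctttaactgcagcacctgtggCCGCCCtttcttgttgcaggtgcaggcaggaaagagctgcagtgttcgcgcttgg
Cldn3: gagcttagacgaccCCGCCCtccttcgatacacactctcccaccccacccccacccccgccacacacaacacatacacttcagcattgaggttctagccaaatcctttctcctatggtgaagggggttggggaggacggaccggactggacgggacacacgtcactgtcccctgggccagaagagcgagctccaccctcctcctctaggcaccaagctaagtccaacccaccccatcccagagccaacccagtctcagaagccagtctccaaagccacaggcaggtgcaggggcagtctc
The GC box is the sequence bound by Sp and Klf factors. It lay at -108 to -103 from the start in Cldn15, at -44 to -39 and -5 to 1 in Cldn4, and at -236 to -231 in Cldn3. It was present in 35.7% of the 32851 promoter windows of the same length in the RefSeq table. The other motifs searched on both strands were the Cdx core TTTATNG (in 10.9% of all windows), the GATA core AGATAA (11.2%), the HNF4 site CAAAGTCCA (0.475%) and the TATA box TATAAA (13.6%), and none of these letters occurred in the 3 windows shown. A match describes the sequence and is no measure of binding.

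The arrays differed in ways that the groups do not define. Between 10652 and 11993 probes were detected per array (detection p under 0.01), and the median signal was 84.6 on replicate 2 of the intestine with Nanog and between 96.2 and 108 elsewhere. Pearson correlations between replicates ran from 0.902 to 0.967 over the tested genes. The 1 Nanog probe was above background on none of the 8 arrays (detection p 0.172 to 0.817), so these arrays gave no check of the overexpression label, and groups are called by their labels. The mean log2 intensity of 19 tested pancreatic acinar genes, a list that includes Zg16, which goblet cells also express, was 8.16 and 13.52 in colon with Nanog, 6.21 and 7.81 in colon without Nanog, 6.72 and 14.08 in intestine with Nanog, and 6.37 and 10.56 in intestine without Nanog. Replicate 2 was the higher array in each group, most of all in both Nanog groups. The mean of the 8 tested epithelial markers lay between 11.24 and 12.31 on all 8 arrays, so the labelled gut tissue carried its epithelial markers in every sample, and Cdh1 (E-cadherin) lay between 10.81 and 11.46. The mean of 8 fibroblast markers was 10.40 and 10.53 in colon with Nanog, 8.88 and 9.14 in colon without Nanog, 9.18 and 8.40 in intestine with Nanog, and 7.50 and 8.43 in intestine without Nanog. In bulk samples such as these, fewer cells of a type and less RNA per cell cannot be told apart.

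**Figure D1:**
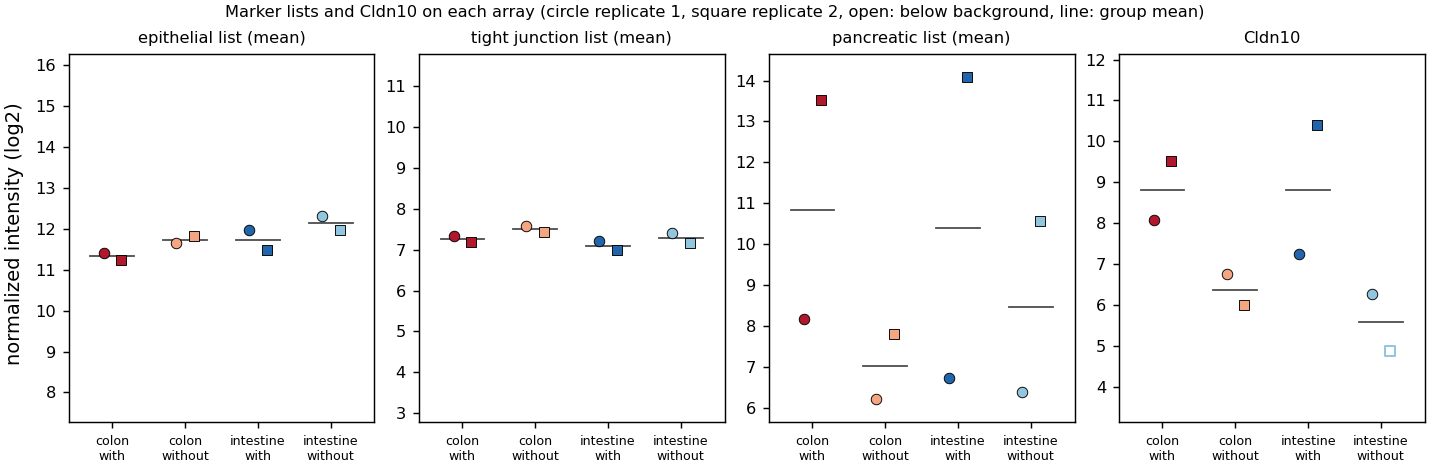
Mean normalized log2 intensity of the epithelial, other tight junction and pancreatic gene lists, and the intensity of Cldn10, on each array (vertical axis), with colon with Nanog, colon without Nanog, intestine with Nanog and intestine without Nanog along the horizontal axis. Circles are replicate 1, squares replicate 2, the open symbol an array not above background, and lines group means. The pancreatic genes reach 13.52 and 14.08 on replicate 2 of the 2 Nanog groups, while the epithelial markers stay between 11.24 and 12.31.

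On average of the tissues, Cldn4 was the one of the 9 tested members that differed most with Nanog. Cldn4 is a sealing claudin of absorptive epithelia and, with Cldn3, a receptor of Clostridium perfringens enterotoxin. Its deposited intensity was 1160 and 1479 in colon with Nanog, 1760 and 1547 in colon without Nanog, 476 and 254 in intestine with Nanog, and 2965 and 1770 in intestine without Nanog. On the normalized log2 scale these arrays stood at 9.90 and 10.49 in colon with Nanog, 10.64 and 10.53 in colon without Nanog, 8.71 and 8.44 in intestine with Nanog, and 11.07 and 10.53 in intestine without Nanog. Both arrays with Nanog were below both arrays without it in each tissue, and the intestine with Nanog was the lowest of the 4 groups. Averaged over the tissues, Cldn4 fell by 1.31 ± 0.21 log2 units with Nanog (SE; 95% interval -1.81 to -0.81; limma, adjusted p = 0.0431 over 8607 genes), a 2.48-fold lower level. It was the 1 claudin of 9 called in this comparison, where 1.2% of all genes tested were called in either direction and 0.476% were called lower. This call was lost on leaving out any array other than replicate 2 of the intestine without Nanog, with adjusted p from 0.0354 to 0.165 over the 8 omissions and differences from -1.46 to -1.16. It was also lost with both Nanog arrays highest in pancreatic genes left out (-1.39), which leaves a single array in each Nanog group. With the pancreatic mean as a covariate it was lost too (-1.27, adjusted p = 0.118). That fit called 21 of all 8607 genes in this comparison, against 103 in the main fit.

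Within one tissue none of the 9 members passed the threshold. In the intestine the Cldn4 difference was -2.23 ± 0.30 (SE; 95% interval -2.93 to -1.52; limma, adjusted p = 0.0673), the largest among the 9 members and a 4.68-fold lower level. In the colon it was -0.39 ± 0.30 (-1.09 to 0.31; adjusted p = 0.64). The intestine comparison called 0.163% of all genes and 0 of 9 claudins, and the colon comparison 0.221% of all genes and 0 of 9 claudins. At an unadjusted p under 0.05 the intestine held 1 of 9 claudins and 8.69% of all genes, and the colon 2 of 9 claudins and 12.5% of all genes. The difference of the 2 Nanog effects, colon minus intestine, was 1.83 ± 0.42 for Cldn4 (0.84 to 2.83; unadjusted p = 0.00325; adjusted p = 0.798). This difference between tissues was called for 0% of all genes, and Cldn4 was the 1 claudin of 9 at an unadjusted p under 0.05, against 4.19% of all genes. With no gene called at all in this comparison, the missed threshold does not show that the Cldn4 effects were alike. The comparisons within tissues share their arrays with the average and are not separate evidence.

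**Figure D2:**
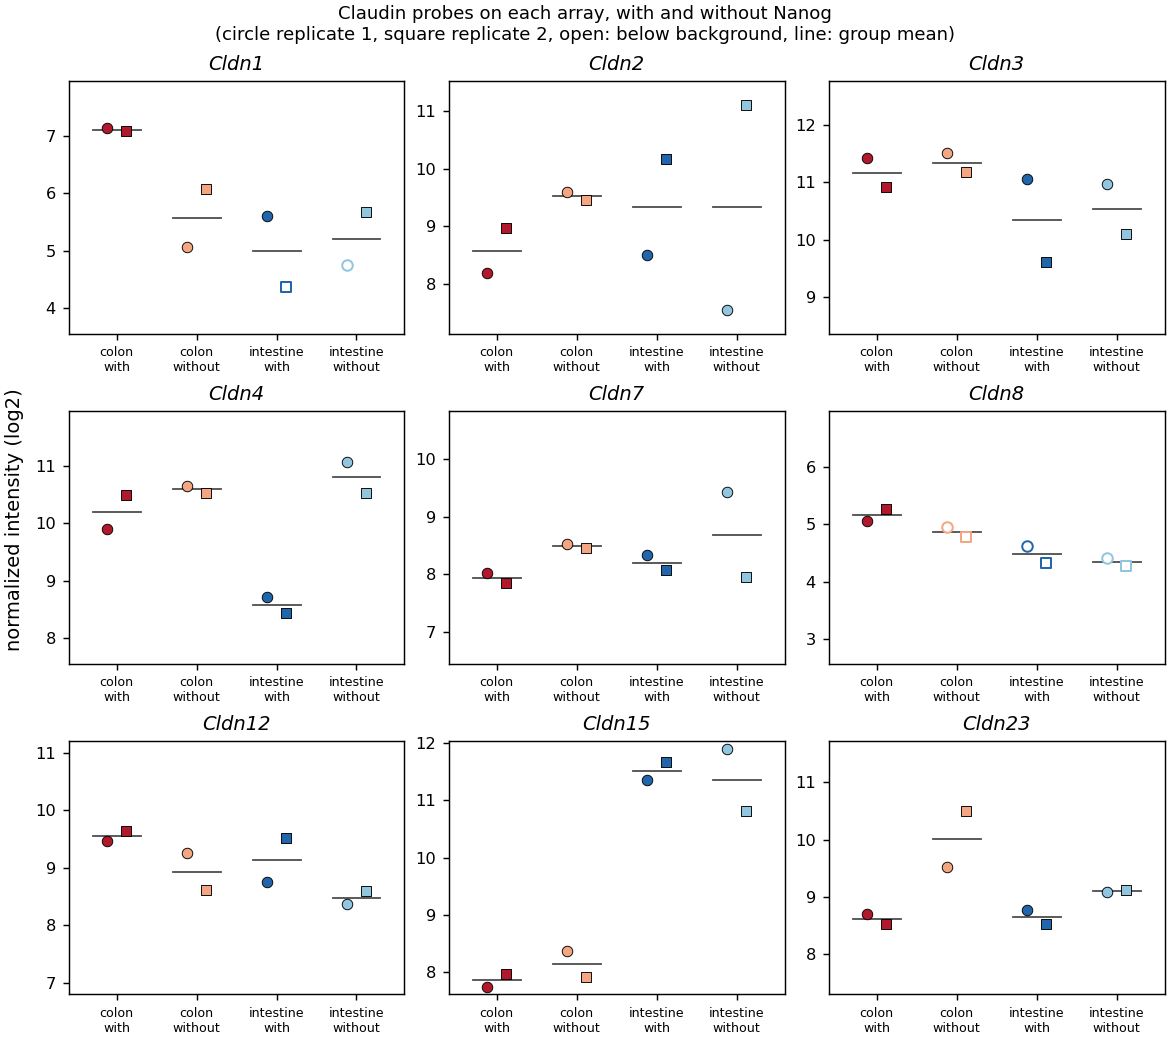
Normalized log2 intensity of each claudin on each array (vertical axis) by group, with the same group order in every panel. Circles are replicate 1, squares replicate 2, open symbols arrays not above background and lines group means. Cldn4 is lowest in intestine with Nanog (8.71 and 8.44), and Cldn15 is higher in both intestine groups (10.80 to 11.90) than in both colon groups (7.75 to 8.37).

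The other sealing claudins passed no test of Nanog. Cldn3, a sealing claudin found throughout the gut, measured 11.41 and 10.92 in colon with Nanog, 11.51 and 11.17 in colon without Nanog, 11.06 and 9.62 in intestine with Nanog, and 10.97 and 10.10 in intestine without Nanog. Arrays with and without Nanog overlapped in both tissues, and the average difference was -0.18 (95% interval -1.04 to 0.67; adjusted p = 0.831). The interval is wide, so equal levels were not shown. Cldn1, best known for the barrier of the skin, stood at 7.14 and 7.07 in colon with Nanog, 5.07 and 6.07 in colon without Nanog, 5.60 and 4.37 in intestine with Nanog, and 4.74 and 5.67 in intestine without Nanog. It was above background on 6 arrays, with 1 array of each intestine group below. In the colon both arrays with Nanog were higher than both without, by 1.53 ± 0.53 (0.29 to 2.78; adjusted p = 0.323), and in the intestine the difference was -0.22 ± 0.53 (-1.47 to 1.02; adjusted p = 0.943). Cldn8, which limits sodium leak in the distal colon, was well above background on 2 arrays only, both of colon with Nanog (5.06 and 5.27). It was not well above background in colon without Nanog (4.95 and 4.77), intestine with Nanog (4.62 and 4.33) or intestine without Nanog (4.41 and 4.27). Cldn8 entered the test only through colon with Nanog, so no difference from colon without Nanog is given (limma, adjusted p = 0.63). The second Cldn8 probe was not above background on any array and was not tested.

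Neither pore-forming claudin passed a test of Nanog. Cldn2, a cation and water pore of the crypt base, measured 8.18 and 8.97 in colon with Nanog, 9.60 and 9.45 in colon without Nanog, 8.50 and 10.18 in intestine with Nanog, and 7.55 and 11.11 in intestine without Nanog. The 2 intestine arrays without Nanog alone lay further apart than any pair of group means, with an SD of 2.52. The average difference was therefore poorly determined, at -0.47 (95% interval -2.28 to 1.34; adjusted p = 0.796). For Cldn15, a cation pore of the small intestine whose loss in mice enlarges that organ, the average difference was -0.063 (-0.70 to 0.57; adjusted p = 0.931). Its second probe gave -0.78 (95% interval -1.35 to -0.21; adjusted p = 0.198) and its dimmest -0.34 (-0.71 to 0.028; adjusted p = 0.348). None of the 3 probes was called. On the second probe both arrays with Nanog were below both without in each tissue, whereas on the brightest probe they overlapped. The dimmest probe entered the fit only through intestine, where both arrays with Nanog were below both without. In colon it was above background on no array with Nanog and on 1 without it. Its order in colon is therefore not read, and its average is limited by background.

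Cldn23 and Cldn12 kept one direction in both tissues without passing the test. Cldn23, a claudin of the differentiated surface epithelium, stood at 8.70 and 8.52 in colon with Nanog, 9.52 and 10.50 in colon without Nanog, 8.78 and 8.53 in intestine with Nanog, and 9.09 and 9.13 in intestine without Nanog. Both arrays with Nanog were below both arrays without in each tissue, with differences of -1.40 ± 0.34 in colon (-2.19 to -0.61; adjusted p = 0.184) and -0.46 ± 0.34 in intestine (-1.25 to 0.33; adjusted p = 0.763). The average was -0.93 ± 0.24 (-1.49 to -0.37; adjusted p = 0.129). Cldn12, a claudin linked to calcium permeability in the gut, measured 9.47 and 9.64 in colon with Nanog, 9.25 and 8.61 in colon without Nanog, 8.76 and 9.53 in intestine with Nanog, and 8.37 and 8.59 in intestine without Nanog. It was on average 0.65 ± 0.24 higher with Nanog (0.083 to 1.21; adjusted p = 0.249). Cldn7, which lies along the lateral membrane as well as in the junction, differed by -0.52 (-1.27 to 0.22; adjusted p = 0.456), with arrays from 7.85 to 8.52 in colon and from 7.95 to 9.43 in intestine. Cldn4, Cldn23 and Cldn12 were thus the 3 of 9 claudins with no overlap in one direction in both tissues, against 14.9% of all genes, with the brightest probe standing for each gene. In colon alone 7 of 9 claudins did not overlap, against 52.9% of all genes, and in intestine alone 3 of 9, against 32.5%. The 7 in colon include Cldn8, which entered the test only through colon with Nanog. The median average difference of the 9 claudins was -0.18, with 3 positive and 6 negative, against -0.0077 for all 8607 genes, of which 49.1% were positive.

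**Figure D3:**
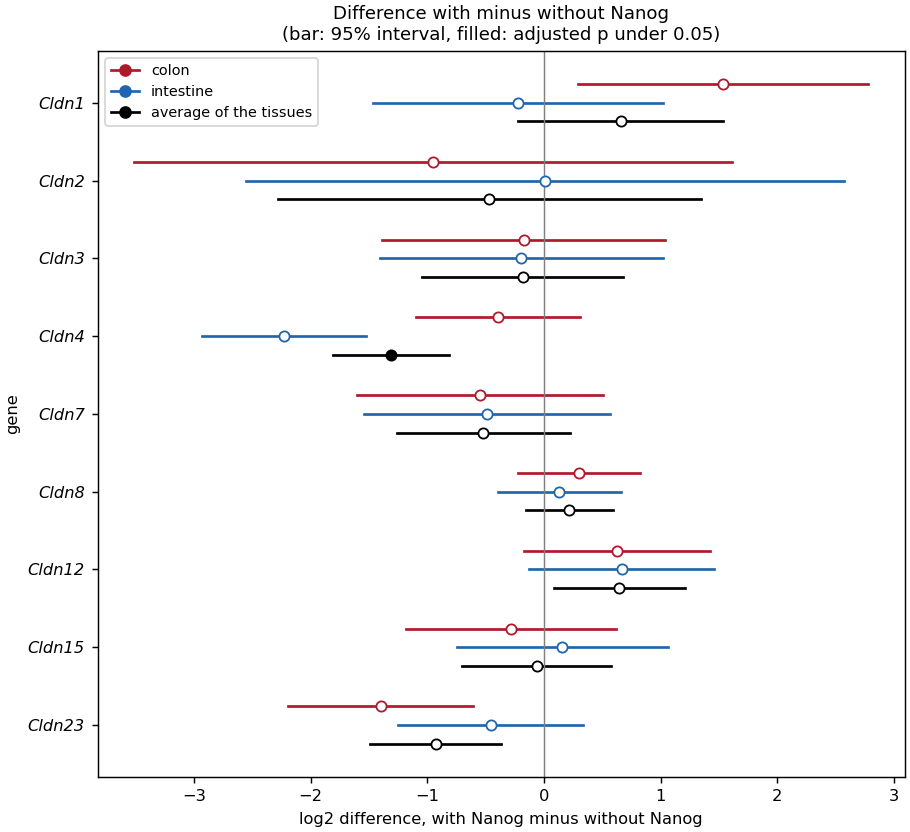
Log2 difference of each claudin between samples with and without Nanog (horizontal axis), in colon, in intestine and averaged, with 95% intervals from limma. Filled symbols mark adjusted p under 0.05. Cldn4 on average of the tissues (-1.31) is the 1 filled symbol, and its intestine value (-2.23) lies furthest from 0.

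Markers of other cells moved alongside these differences. With Nanog, on average of the tissues, 3 of 8 fibroblast markers were called, all higher, against 1.2% of all genes. Col1a1 (2.19 ± 0.32, adjusted p = 0.0347), a collagen I chain, and Sparc (1.59 ± 0.25, adjusted p = 0.0423), a matrix protein, were above background on all 8 arrays. Col1a2 was above background on both arrays in colon with Nanog only. It entered the test only through that group, so no difference is read from its call. Of 8 epithelial markers 7 were negative with a median of -0.51 and 0 were called. The mean of these markers was 11.42 and 11.24 in colon with Nanog, 11.65 and 11.82 in colon without Nanog, 11.97 and 11.50 in intestine with Nanog, and 12.31 and 11.98 in intestine without Nanog. Of 19 pancreatic genes 18 were positive with a median of 3.2 and 0 were called. The plasma cell gene Mzb1 fell by 2.34 ± 0.25 (adjusted p = 0.0157). Of 3 tested mesothelial genes 1 was positive and 2 were negative, and Upk3b was the 1 called. Upk3b was not above background on the 4 arrays with Nanog (4.39 to 4.46), against 6.09 to 7.83 on the 4 arrays without it. It entered the test only through groups without Nanog, so no difference is given. The part of these cell types in the Cldn4 result was not tested, beyond the fits with the pancreatic genes given above.

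Between the tissues, Cldn15 was the one of the 9 members that differed most. Its brightest probe measured 7.75 and 7.97 in colon with Nanog, 11.35 and 11.67 in intestine with Nanog, 8.37 and 7.92 in colon without Nanog, and 11.90 and 10.80 in intestine without Nanog. No colon array reached any intestine array. Cldn15 was 10.8-fold lower in colon than in intestine on average of the Nanog states, a difference of -3.43 ± 0.27 (SE; 95% interval -4.07 to -2.79; limma, adjusted p = 0.000361). With Nanog the difference was -3.65 ± 0.38 (-4.55 to -2.75; adjusted p = 0.00261), and without Nanog it was -3.21 ± 0.38 (-4.11 to -2.31; adjusted p = 0.00472). The call of the average held on leaving out each of the 8 arrays in turn (adjusted p from 0.000123 to 0.00397). The call without Nanog was lost when replicate 2 of colon without Nanog was left out (adjusted p = 0.0565). Beside this difference, 2 of 8 epithelial markers were called lower in colon on average, Krt20 (-1.20 ± 0.23, adjusted p = 0.014) and Cdh17 (-1.38 ± 0.24, adjusted p = 0.0104). Of all 8 epithelial markers, 4 were positive and 4 negative, with a median of -0.15. Of 8 fibroblast markers 5 were called higher, among them Col1a1 (1.94 ± 0.32, adjusted p = 0.00877), and of 19 pancreatic genes 0 were called. Of all genes 15.7% were called in this comparison. Their part in the Cldn15 difference was not tested.

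The second Cldn15 probe gave the same direction, and the dimmest was limited by background in colon. The second measured 6.12 and 6.33 in colon with Nanog, 10.11 and 10.21 in intestine with Nanog, 6.62 and 7.66 in colon without Nanog, and 10.75 and 10.86 in intestine without Nanog. In a fit of all 12064 detected probes its average difference was -3.80 ± 0.24 (adjusted p = 0.000131). The dimmest probe was not above background on either array of colon with Nanog (4.54 and 4.58), against 7.92 and 8.21 in intestine with Nanog. Without Nanog it measured 4.92 (not above background) and 5.17 in colon, against 8.28 and 8.25 in intestine. It entered the fit only through intestine, so no difference between the tissues is given for it. The brightest and second probes placed every colon array below every intestine array.

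**Figure D4:**
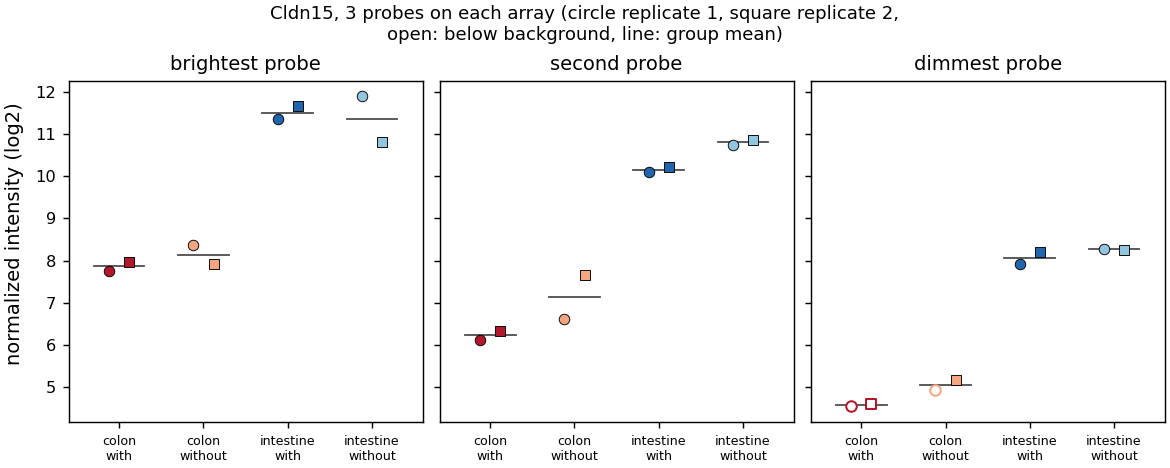
Normalized log2 intensity of the 3 Cldn15 probes on each array (vertical axis) by group, with circles for replicate 1, squares for replicate 2, open symbols for arrays not above background and lines for group means. In each panel the 4 colon arrays lie below the 4 intestine arrays, for the brightest probe at 7.75 to 8.37 against 10.80 to 11.90.

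Cldn4 differed between colon and intestine in the samples with Nanog. There it was 1.62 ± 0.30 higher in colon (SE; 95% interval 0.92 to 2.32; limma, adjusted p = 0.0245), a 3.08-fold difference, whereas without Nanog the difference was -0.21 (-0.91 to 0.49; adjusted p = 0.743). The test of whether these differ is the same 1.83 ± 0.42 given above (adjusted p = 0.798). The call with Nanog was kept without either array of the intestine without Nanog and lost without any of the other 6 arrays (adjusted p from 0.0151 to 0.177, differences from 1.33 to 1.92). With the 2 arrays highest in pancreatic genes left out, a single array remained in each group with Nanog. The Cldn4 call was then lost (1.19), as was that of Cldn15 with Nanog (-3.59).

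Of the remaining claudins, Cldn8 passed the threshold in the average of colon against intestine (adjusted p = 0.0432). It entered the test only through colon with Nanog, the group where it was highest, and its other 3 groups were not well above background, so neither a difference nor a fold can be read from the call. Leaving out any 1 array ended it (adjusted p from 0.0524 to 0.171), and the fitted value of 0.61 became 0.24 without background correction and 0.27 with an offset of 50. Cldn1 entered the test only through the colon groups, with 1 array of each intestine group below background, so no difference between the tissues is given. Its limma test passed the threshold neither with Nanog (adjusted p = 0.0627) nor without it (adjusted p = 0.752). With an offset of 50 the test with Nanog did pass (adjusted p = 0.0496). Cldn3 differed by 0.82 (-0.038 to 1.68; adjusted p = 0.177; 0.73 and adjusted p = 0.0357 with the pancreatic covariate), Cldn12 by 0.43 (-0.13 to 1.00; adjusted p = 0.265), Cldn7 by -0.23 (adjusted p = 0.667) and Cldn2 by -0.29 (-2.10 to 1.52; adjusted p = 0.84). Cldn23 was 0.90 ± 0.34 higher in colon without Nanog (0.11 to 1.69; adjusted p = 0.189) and differed by -0.042 with Nanog (-0.84 to 0.75; adjusted p = 0.96).

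In counts, 2 of 9 claudins were called between colon and intestine with Nanog (6.65% of all genes), 1 of 9 without Nanog (5.5%) and 2 of 9 on average (15.7%). With Nanog these were Cldn4 and Cldn15, without Nanog Cldn15, and on average Cldn15 and, at background levels, Cldn8. Arrays of the 2 tissues did not overlap for 5 of 9 claudins with Nanog (58.7% of all genes), 5 of 9 without (48.1%) and 2 of 9 in both Nanog states in one direction (29.9%). Cldn8, tested only through colon with Nanog and not well above background elsewhere, was among the claudins in each of these 3 counts. With Cldn8 counted, the shares without overlap were close to those of all genes. The median average difference was 0.43 for the 9 claudins and 0.11 for all 8607 genes.

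**Figure D5:**
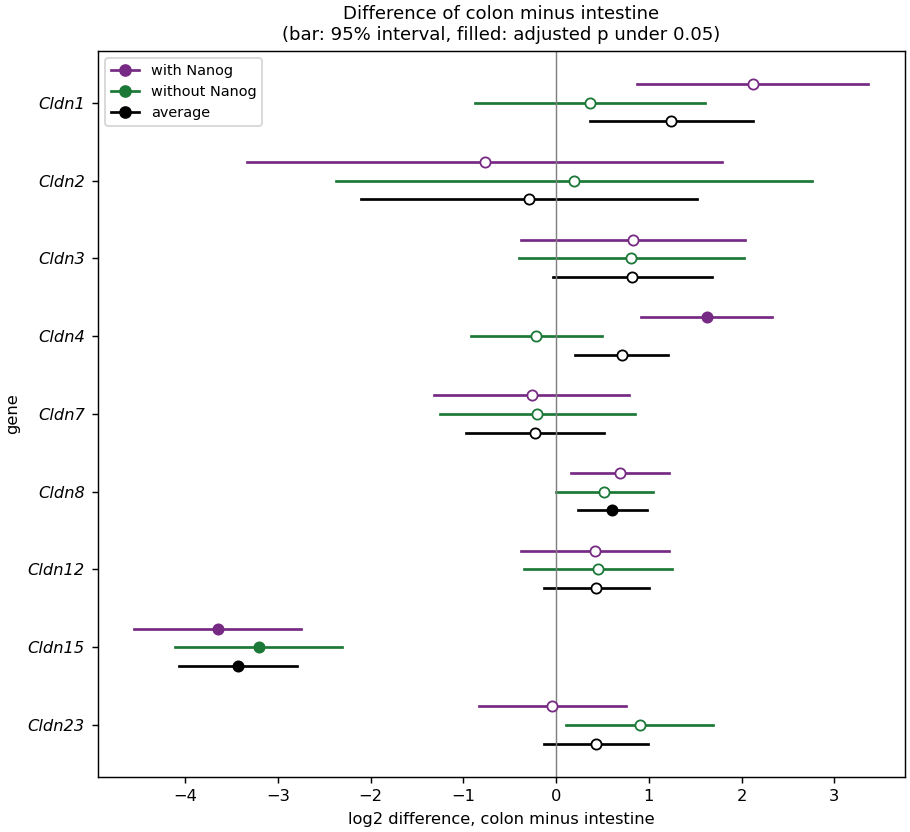
Log2 difference of each claudin between colon and intestine (horizontal axis; positive is higher in colon), with Nanog, without Nanog and averaged, with 95% intervals from limma. Filled symbols mark adjusted p under 0.05. Cldn15 lies at -3.65, -3.21 and -3.43, and Cldn4 is filled in the samples with Nanog (1.62). The filled Cldn8 average rests on levels near background.

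No other tight junction gene tested was called for Nanog. Of 27 listed scaffold, adhesion and tricellular junction genes, 23 had a probe and 18 were tested. With Nanog 0 of these 18 were called in either tissue or on average, and on average 14 were negative with a median of -0.22. Occludin (Ocln), the first membrane protein described at the junction, differed by -0.21 ± 0.15 (adjusted p = 0.509) and its scaffold Tjp1 by -0.070 ± 0.19 (adjusted p = 0.879). The scaffold Tjp3 differed by -0.90 ± 0.40 (adjusted p = 0.326) and the adhesion molecule F11r by -0.87 ± 0.39 (adjusted p = 0.323).

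Between the tissues, on average, 4 of the 18 were called, 3 higher and 1 lower in colon, against 15.7% of all genes. Ildr1, an angulin of the contacts where several cells meet, measured 9.57 and 8.94 in colon with Nanog, 6.09 and 5.90 in intestine with Nanog, 9.33 and 8.98 in colon without Nanog, and 5.25 and 6.14 in intestine without Nanog. No colon array overlapped an intestine array, and the difference was 3.36 ± 0.26 (adjusted p = 0.000324). Marveld3, a relative of occludin, was higher in colon by 0.71 ± 0.18 (adjusted p = 0.0376), and the adhesion receptor Cxadr by 0.69 ± 0.16 (adjusted p = 0.0326). Pals1 (Mpp5 in the files), a polarity scaffold, was the gene called lower, but it was not above background on the 4 colon arrays (4.72 to 4.88, against 5.32 to 5.90 in intestine) and entered the test only through intestine, so no difference is given. The tricellular partner Lsr of the same family as Ildr1 differed by -0.16 ± 0.28 (adjusted p = 0.741).

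Among 19 listed claudin and claudin-domain genes outside the 10, 13 had a probe and 4 were tested (Cldn9, Cldn10, Cldn14 and the claudin-domain gene Cldnd1), with 0 called for Nanog. Between the tissues 1 of the 4 was called with Nanog and 1 on average, higher in colon, against 6.65% and 15.7% of all genes. These calls are only counted here. Cldn10, which forms ion pores and is known from kidney and secretory glands, had the largest Nanog difference of these 4. It measured 8.08 and 9.52 in colon with Nanog, 6.75 and 5.99 in colon without Nanog, 7.25 and 10.39 in intestine with Nanog, and 6.28 and 4.88 in intestine without Nanog. Both arrays with Nanog were above both without in each tissue, by 2.84 ± 0.73 on average (adjusted p = 0.129). Within both Nanog groups its higher array was replicate 2, the one with the higher pancreatic genes. In both groups without Nanog replicate 2 also had the higher pancreatic mean but the lower Cldn10 value. The part of the pancreatic genes in the Cldn10 values was not tested. Other Cldn10 probes that passed the filter are not described here. Cldn14, a sealing claudin, was above background on 2 arrays only, both of colon with Nanog (5.20 and 5.19), through which alone it entered the test. The other 6 arrays lay between 4.23 and 4.92.

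Transcription factors known to act on claudin genes or to specify gut epithelium were read beside them. Of 17 listed, 15 had a probe and 13 were tested, with 0 called for Nanog. The intestinal homeobox factor Cdx2, which is known to activate the human claudin-2 promoter, measured 6.82 and 5.98 in colon with Nanog, 10.17 and 10.25 in colon without Nanog, 9.91 and 8.84 in intestine with Nanog, and 12.10 and 10.02 in intestine without Nanog. Both arrays with Nanog were lower in each tissue, by 2.75 ± 0.49 on the log2 scale on average (adjusted p = 0.057), which missed the threshold. Between the tissues 6 of 13 were called on average, against 15.7% of all genes. Cdx1 (1.66 ± 0.40, adjusted p = 0.0344) and Grhl2 (1.07 ± 0.21, adjusted p = 0.0176), an activator of Cldn4 in mouse epithelia, were higher in colon. Cdx2 (-1.92 ± 0.49, adjusted p = 0.0403), Gata6 (-0.75 ± 0.17, adjusted p = 0.025) and Ovol1 (-1.45 ± 0.28, adjusted p = 0.016) were lower. Gata4, a factor of the proximal small intestine, was the sixth; it was not above background on the 4 colon arrays (4.52 to 4.60, against 5.15 to 6.14 in intestine) and entered the test only through intestine, so no difference is given.

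The genes whose pattern over the 8 arrays was most like that of a claudin were listed for the 3 claudins with the widest range of group means. For Cldn15 (range 3.65 log2 units) these were Tkfc, Rdh7 and Otc, with Pearson r of 0.995, 0.993 and 0.993. For Cldn4 (range 2.23) they were Cnst, Nuak1 and Nt5e, with r of 0.933, 0.929 and 0.928. For Cldn1 (range 2.12) they were Mfap5, Ncoa2 and Loxl2, with r of 0.967, 0.946 and 0.945. These were the highest of 8606 genes compared in each case, over 8 arrays of 4 groups that share group differences, and describe likeness only. Among the 9 claudins themselves, the 36 pairwise correlations ran from -0.87 for Cldn8 with Cldn15 to 0.76 for Cldn1 with Cldn8. Cldn8 was above background on 2 of the 8 arrays and Cldn1 on 6, so both ends of this range rest on values near background.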

How the data were processed

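Total RNA of 8 samples was labelled with biotin and hybridised to Illumina bead arrays, 1 sample an array. The authors deposited an intensity for each probe and array, not normalized, with a detection p-value for each, and a table of processed log2 values of the same arrays. BeadStudio 3.2, RMA and lumi are named, with no role, per the submitters' processing notes. Genes were taken from the platform's annotation, in which 23978 probes have 1 symbol, 0 have several and 1719 have none.

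Deposited intensities were background-corrected by normexp using the detection p-values (offset 16), put on the log2 scale and quantile-normalized. A probe was kept if some group had detection p under 0.01 on both its arrays (12064 probes), and the brightest probe on average represented each gene (8607 genes). One model with a mean for each of the 4 groups was fitted with limma 3.58.1 in R 4.3.3 (lmFit and eBayes, 4 residual degrees of freedom), and p-values were adjusted by Benjamini-Hochberg over all 8607 genes, with a threshold of 0.05. These adjusted p-values, from limma throughout, test a difference against a spread between samples pooled over the 4 groups of 2 and moderated by eBayes. The number of arrays limits the precision. Alternatives were the authors' processed values, other background, scaling, filter and probe choices, a replicate block and leaving out each array. Leaving out both Nanog arrays highest in pancreatic genes, or using those genes as a covariate, was chosen after seeing the data. The fit was tested on simulated data.

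All 10 members and every called gene of the lists were to be named, with defining junction and cell markers and the 3 genes most like each of 3 members. Some list genes called between the tissues are only counted here. Members and lists were chosen with earlier results of these data known. Slide and scan batches are not given in the sources used here, so they were not tested. Lists of desmosome, adherens junction, endothelial, smooth muscle and adipocyte genes had 0 calls for Nanog on average, and between the tissues 0, 1, 0, 2 and 1 calls of 4, 7, 10, 7 and 3 tested genes. The immune and mesothelial lists had 1 call each of 7 and 3 tested genes for Nanog, and 3 and 0 between the tissues.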

Additional observations from a re-analysis of the deposited data

How the results depend on the processing

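Over all alternatives 1107 values of single claudins were recomputed: 71 called values stayed called, 34 lost the call, 9 gained one and 0 of the called ones changed sign. The 1 claudin called for Nanog on average of the tissues (Cldn4) became 0 with the authors' processed values (-1.34, adjusted p = 0.0609), median scaling (-1.56, adjusted p = 0.0655), no detection filter (adjusted p = 0.0871), both pancreatic-high Nanog arrays left out and the pancreatic covariate, and 0 to 1 without 1 array. Between colon and intestine with Nanog 2 claudins became 0 with those 2 arrays left out, 3 with an offset of 50 (Cldn1 gained) and 1 to 3 without 1 array. Without Nanog 1 became 0 to 1. On average 2 became 1 under median scaling, with an offset of 50, without background correction or with those 2 arrays left out, and 1 to 3 without 1 array. With the pancreatic covariate the count stayed at 2, but Cldn3 gained the call (0.73, adjusted p = 0.0357) and Cldn8 lost it (adjusted p = 0.0532). The cause was not tested. No paired design is given: same-numbered arrays share only a number (deviations correlated at 0.11 to 0.47 over 6 pairs of groups), and with the replicate block the claudins called stayed at 1, 2, 1 and 2 while the genes called for Nanog on average went to 174, against 103.

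Values that turned sign, none of them called in the report, were the following. For Nanog in the intestine they were Cldn1 0.39, Cldn2 -0.82, Cldn3 0.53 and Cldn15 -0.0021 with the pancreatic-high arrays left out, Cldn2 -0.58 and Cldn3 0.13 with the covariate, Cldn2 -0.42 and Cldn15 -0.24 with median scaling, Cldn2 -0.073 with no background correction and -0.035 with an offset of 50, and Cldn15 -0.23 with the mean of its probes. For Nanog in the colon they were Cldn3 0.071 and 0.47, and on average Cldn3 0.30 and 0.30, with those arrays left out and with the covariate. For the difference between tissues they were Cldn3 -0.46, Cldn8 -0.077 and Cldn12 0.26 with those arrays left out, Cldn7 0.11 with the covariate, and Cldn7 0.53, Cldn12 0.50 and Cldn15 0.014 with median scaling. Median scaling also gave Cldn7 0.16 and Cldn23 0.36 for colon against intestine with Nanog. Leaving out 1 array gave these ranges: Nanog in intestine, Cldn1 -0.84 to 0.39, Cldn2 -1.77 to 1.79, Cldn3 -0.92 to 0.53, Cldn7 -1.23 to 0.25, Cldn8 -0.014 to 0.27, Cldn15 -0.39 to 0.70; Nanog in colon, Cldn3 -0.42 to 0.071; Nanog on average of the tissues, Cldn2 -1.36 to 0.42, Cldn3 -0.55 to 0.18, Cldn15 -0.34 to 0.21; Nanog difference between tissues, Cldn2 -2.74 to 0.82, Cldn3 -0.70 to 0.74, Cldn7 -0.80 to 0.68, Cldn12 -0.42 to 0.35, Cldn15 -0.98 to 0.11; colon against intestine with Nanog, Cldn2 -1.61 to 0.068, Cldn23 -0.17 to 0.085; colon against intestine without Nanog, Cldn1 -0.14 to 0.87, Cldn2 -1.59 to 1.98, Cldn4 -0.48 to 0.058, Cldn7 -0.94 to 0.54; colon against intestine on average, Cldn2 -1.18 to 0.60, Cldn7 -0.60 to 0.14.

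The number of genes called changed by more than 1.5 times as follows. For Nanog in the intestine 14 became 0 with only the arrays compared. For Nanog in the colon 19 became 7 with no filter, 128 with only the arrays compared and 6 with the covariate. On average 103 became 43 with median scaling, 48 with no filter, 21 with the covariate and 174 with the replicate block. For the difference between tissues 0 became 3 with no background correction or an offset of 50. With no filter 572 became 378 and 473 became 302 for the tissues with and without Nanog, and 473 became 189 with only the arrays compared. With both pancreatic-high arrays left out the 7 counts (Nanog in intestine, in colon, on average, its difference between tissues, then colon against intestine with Nanog, without Nanog and on average) were 0, 0, 0, 0, 59, 189 and 268. Without 1 array they ran from 2 to 71, 0 to 49, 6 to 218, 0 to 20, 132 to 912, 140 to 779 and 605 to 1783, against 14, 19, 103, 0, 572, 473 and 1348. Median scaling moved the median of all genes to -0.38 for Nanog in the intestine, -0.17 for Nanog on average and 0.40 for colon against intestine with Nanog. Under it the split of higher and lower calls was 9 and 3 against 12 and 2 in the intestine with Nanog, 20 and 23 against 62 and 41 on average, 307 and 172 against 274 and 298 between tissues with Nanog, and 127 and 244 against 210 and 263 without Nanog. The authors' values gave 11 and 11 against 13 and 6 for Nanog in the colon. Signal near background limits Cldn8, Cldn1 and the dimmest Cldn15 probe.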
